A study of Mus musculus with 6 samples.

Results

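Hepcidin is the peptide hormone of iron balance, and 10 genes of its control and of iron handling in mouse liver are described here: the hepcidin genes Hamp and Hamp2, the ligands Bmp2 and Bmp6, the BMP targets Id1 and Smad6, and the iron genes Tfrc, Trf, Slc40a1 and Fth1. They were picked by symbol. All 10 had a row among the 16426 genes of the deposited table, and all 10 were among the 14114 genes that the authors tested. Liver RNA came from male C57/BL mice: 3 normal animals received saline, and 3 animals of the model group received 20% CCl4 for 10 weeks. CCl4 is a solvent that liver enzymes turn into radicals, and repeated doses scar the liver. A further arm of the design, CCl4 with the flavonoid didymin, was not analysed here. The sources used here do not give the animals' age.

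The authors' deposited table compares 3 libraries called ly_A with 3 called ly_B, and neither name matches a sample label. Which library set is the normal and which the CCl4 group is therefore not stated here, and no difference is given as an effect of CCl4. Columns of single libraries were not used for the same reason, so each gene has the authors' log2 fold change and p-values but no value per animal, no error and no depth. A positive log2 value is read as higher in ly_A, because the comparison's name puts ly_A first, and this reading was not checked against library values. Calls mean an adjusted p under 0.05. In bulk liver RNA, fewer cells of a type and less RNA per cell cannot be told apart.

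Hepatocytes secrete hepcidin, which binds the iron exporter ferroportin (Slc40a1) and causes its breakdown, so that less iron reaches the blood. Sinusoidal endothelial cells make the bone morphogenetic proteins BMP2 and BMP6, which act on hepatocyte receptors with the co-receptor hemojuvelin. SMAD proteins then carry the signal to the nucleus, where Hamp, Id1, Smad6 and Smad7 are among the targets. Interleukin-6 raises hepcidin through STAT3. Inside the cell, iron regulatory proteins bind RNA hairpins and set how much transferrin receptor, ferritin and ferroportin is made.

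Mice carry a second hepcidin gene, Hamp2, beside Hamp on chromosome 7, with 1 annotated pseudogene, Usf2-ps1, between them. Its peptide is not regarded as a regulator of iron. The promoters of this pair are shown because the hepcidin genes stood on opposite sides of 0 in the comparison. The stretches of 62 bases below, from RefSeq on build GRCm38.p6, lie on the minus strand at chr7:30944097-30944158 for Hamp and chr7:30924246-30924307 for Hamp2. Capitals mark the BMP response element position and, after it, the STAT site.
Hamp: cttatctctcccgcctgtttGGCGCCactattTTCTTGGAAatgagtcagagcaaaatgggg
Hamp2: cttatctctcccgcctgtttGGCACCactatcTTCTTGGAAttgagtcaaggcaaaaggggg

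The stretches differ at 6 positions, counted from 1 at the 5′ end of the Hamp stretch. One of them, G24A, falls in the BMP response element, so that GGCGCC in Hamp is GGCACC in Hamp2. The other 5 (T32C, A42T, G50A, A51G and T58G) lie outside both capitalised parts. The STAT site TTCTTGGAA is the same in both genes. Over the 250 bases before the start site the promoters were 89.7% identical. GGCGCC, searched on both strands, was held by 9.59% of 32851 promoter windows of 250 bases, the STAT motif TTCNNNGAA by 7.02%, and both motifs by 0.368%. The AP-1 type motif TGAGTCA, which stood in both hepcidin promoters right after the STAT site, was held by 4.46%. Of the other members, Bmp6, Smad6, Tfrc and Fth1 had a promoter in the RefSeq table. Only 1 of the 2 Tfrc windows held GGCGCC, starting at position -89, and none of these windows held the STAT or the AP-1 type motif. Bmp2, Id1, Trf and Slc40a1 were not matched. A match describes letters and does not show that a factor binds.

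Of the 10 members, 1 was higher in ly_A (Hamp2) and 2 were higher in ly_B (Id1 and Tfrc) in the authors' deposited table. Among all tested genes 18.1% were called higher in ly_A and 17.7% higher in ly_B, together 35.8%. A share of 3 in 10 members is near that background. The members' median log2 fold change was -0.19 in the authors' deposited table, beside 0.07 over all tested genes. Without adjustment, 6 of 10 had a p under 0.05, against 44.5% of all tested genes. The added 3 were Fth1, Bmp2 and Hamp, whose adjusted p-values of 0.0543, 0.067 and 0.0847 in the authors' deposited table lay just above the threshold.

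**Figure D1:**
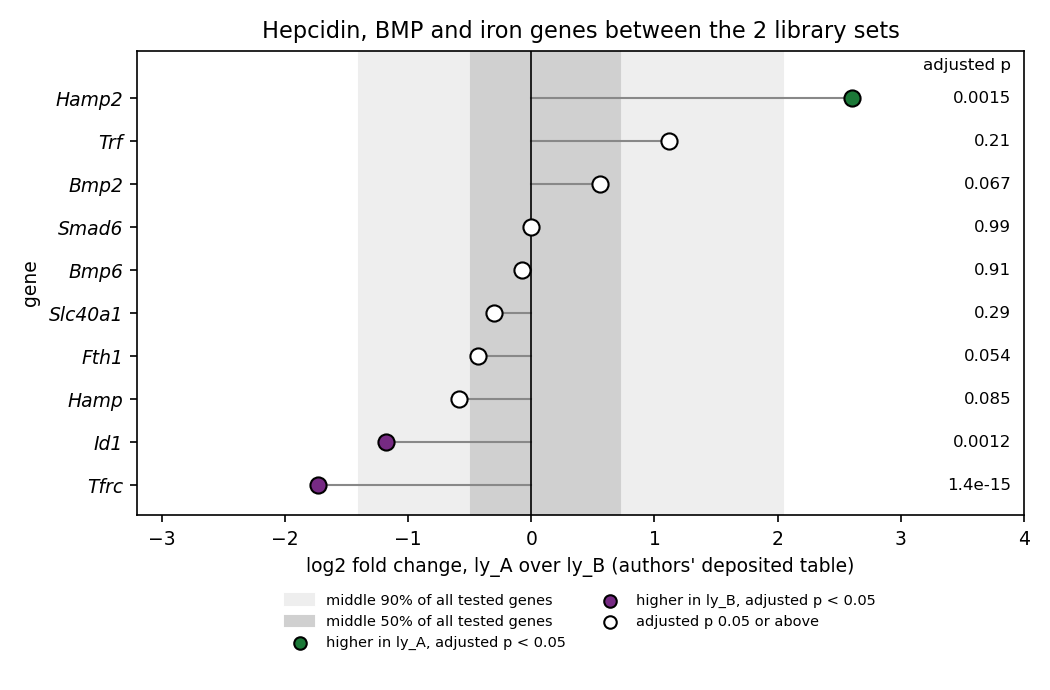
Log2 fold change of ly_A over ly_B for the 10 genes (horizontal axis), with the authors' adjusted p at the right; filled points were called and open points were not, and the bands hold the middle 50% and 90% of all tested genes. Hamp2 at 2.61 and Tfrc at -1.73 lie outside the 90% band, Id1 at -1.18 lies inside it, and the 7 open points lie between -0.58 and 1.11.

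The hepcidin genes had log2 values on opposite sides of 0, and only Hamp2 was called. Hamp2 was 6.10-fold higher in ly_A (log2 2.61, adjusted p = 0.00154) in the authors' deposited table, a log2 value above those of 96.7% of tested genes. Hamp, which encodes the hormone that controls ferroportin, stood at a log2 value of -0.58 in the authors' deposited table and did not pass (adjusted p = 0.0847). The difference between the copies was not tested, since it needs values per library. The main transcripts of Hamp and Hamp2 in GENCODE M21 were 92.4% identical over 420 aligned positions, with 1 identical run of 87 bases. Reads that lie wholly within such a run cannot be assigned to 1 copy. The sources used here do not say how the authors' counting treated them. Both values are uncertain for that reason.

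Neither endothelial ligand was called. Bmp2, which with Bmp6 drives basal hepcidin expression, stood at 0.56 (adjusted p = 0.067) in the authors' deposited table. Bmp6, the ligand that rises with liver iron stores, stood at -0.08 (adjusted p = 0.914). These values from the authors' deposited table correspond to 1.48-fold towards ly_A and 1.05-fold towards ly_B. Markers of the sinusoidal endothelium, the source of both ligands, did move: 11 of 12 were higher in ly_A and 0 in ly_B in the authors' deposited table, with a median log2 value of 1.16. The 11 are 91.7% of the list, beside 35.8% called among all tested genes. Stab2, a scavenger receptor of these cells, stood at 1.77 (adjusted p = 2.18e-17) and the nuclease gene Dnase1l3 at 1.63 (adjusted p = 2.34e-10) in the authors' deposited table. Lyve1, the hyaluronan receptor, was the member without a call, at -0.08 (adjusted p = 0.858) in the authors' deposited table. Bmp2 thus had a smaller log2 value than the median of that list, and Bmp6 one near 0. The part of endothelial RNA in the ligand values was not tested.

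Other ligands and antagonists were called in both directions. Of 20 tested genes of this list, 5 were higher in ly_A and 3 in ly_B in the authors' deposited table, with a median log2 value of 0.44. That is 40.0% of the list, beside 35.8% called among all tested genes. The ligand gene Bmp4 at 1.28 (adjusted p = 0.0149) and the secreted protease Htra1 at 1.40 (adjusted p = 0.0168) were higher in ly_A in the authors' deposited table. Bmp1, which despite its name encodes a procollagen protease, and the activin subunit gene Inhbe were also called towards ly_A, at 0.75 and 1.84 in the authors' deposited table (adjusted p = 0.017 and 0.0182). Higher in ly_B were Fst, whose product follistatin binds activins and some BMPs, at -1.83 (adjusted p = 1.38e-09), Twsg1, a secreted BMP-binding protein, at -0.86 (adjusted p = 0.000183), and the activin subunit gene Inhba at -1.11 (adjusted p = 0.0137) in the authors' deposited table. The genes of the circulating ligands, Bmp10 and Gdf2 (BMP9), stood at -0.43 and 0.14 and were not called in the authors' deposited table (adjusted p = 0.5 and 0.757). Inhbb, which encodes the subunit of activin B, an inflammatory inducer of hepcidin, was not called either, at -0.28 (adjusted p = 0.708) in the authors' deposited table.

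Receptor and co-receptor genes were called in both directions, while the called SMADs were higher in ly_B. Hfe2, the older symbol of the hemojuvelin gene Hjv, was 6.28-fold higher in ly_A (log2 2.65, adjusted p = 5.09e-11) in the authors' deposited table. Eng, the endothelial co-receptor endoglin, stood at 1.21 (adjusted p = 7.59e-09) in the authors' deposited table. The receptor genes Acvr2b at 1.11 (adjusted p = 0.0167) and Acvrl1 at 1.10 (adjusted p = 0.009) were higher in ly_A too in the authors' deposited table. Higher in ly_B were Neo1 at -1.04 (adjusted p = 0.00586) and the receptor gene Acvr2a at -0.90 (adjusted p = 0.00216) in the authors' deposited table. Of 21 tested receptors, co-receptors and SMADs, 4 were higher in ly_A and 7 in ly_B in the authors' deposited table. Together these are 52.4%, against 35.8% over all tested genes. The median of this list was -0.43, and 17 of 21 had a negative log2 value, called or not. Among all tested genes, 6626 of 14114 had a negative value. Smad5, which carries the BMP signal, was higher in ly_B at -0.78 (adjusted p = 0.000244), and its partner Smad1 stood at -0.43 without a call (adjusted p = 0.092) in the authors' deposited table. The ubiquitin ligase gene Smurf2, at -0.86, and Fkbp1a, whose product FKBP12 holds type I receptors inactive, at -0.73, were also higher in ly_B (largest adjusted p = 0.00117) in the authors' deposited table.

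**Figure D2:**
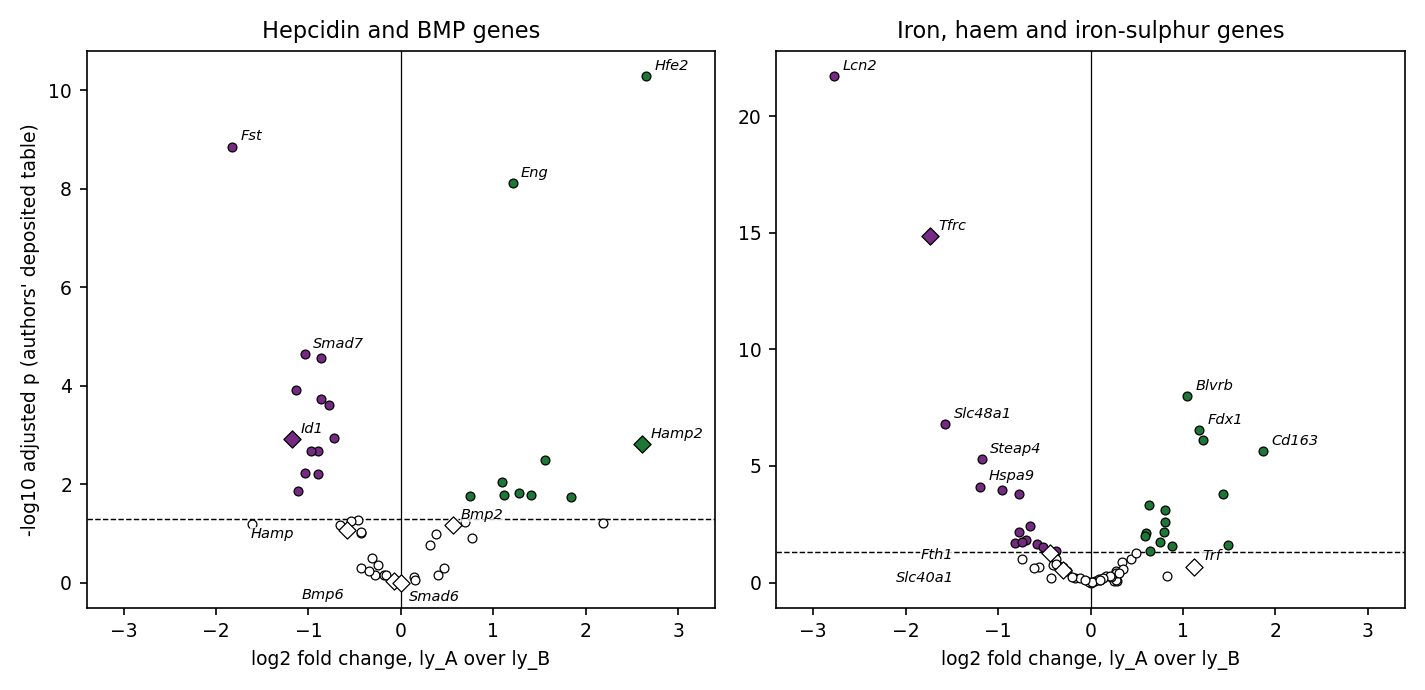
Log2 fold change of ly_A over ly_B (horizontal axis) against -log10 of the authors' adjusted p (vertical axis, a different range in each panel) for tested BMP genes at the left and iron, haem and iron-sulphur genes at the right; diamonds are the members, filled points were called, and the dashed line marks an adjusted p of 0.05. Hfe2 at 2.65 lies at the top of the left panel, and Lcn2 at -2.78 and Tfrc at -1.73 at the top of the right panel.

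Some of the genes that answer to BMP signals were called and others were not. Id1, an inhibitor of helix-loop-helix transcription factors and a direct SMAD target, was 2.27-fold higher in ly_B (log2 -1.18, adjusted p = 0.00121) in the authors' deposited table. Its relatives Id2 at -0.97 (adjusted p = 0.00208) and Id3 at -1.13 (adjusted p = 0.000123) were higher in ly_B too in the authors' deposited table. The fourth of the family, Id4, was not called, at -0.35 (adjusted p = 0.567) in the authors' deposited table. Smad7, an inhibitory SMAD that feeds back on the receptors, stood at -1.04 (adjusted p = 2.29e-05) in the authors' deposited table. Smad6, the inhibitory SMAD that acts mainly on BMP receptors, had a log2 value of -0.0035 and was not called (adjusted p = 0.993) in the authors' deposited table. Atoh8, a transcription factor that follows BMP signalling and iron in liver, stood at 0.38 without a call (adjusted p = 0.101) in the authors' deposited table.

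Counted over 13 tested target genes, 4 were higher in ly_B (Id1, Id2, Id3 and Smad7) and 1, Hamp2, in ly_A in the authors' deposited table. That is 38.5% of the list, near the 35.8% called among all tested genes. The list's median was -0.18, beside 0.07 over all tested genes. The Id genes and Smad7 also answer to TGF-beta and other signals, so the list does not measure BMP signalling alone. Of the 13, 9 had a negative and 4 a positive log2 value. Hamp was not called. Its negative value was smaller in size than those of the 4 targets higher in ly_B, and whether it goes with them was not tested.

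Other regulators of hepcidin were called in both directions, and the sensors of transferrin iron were not called. Hfe and Tfr2, whose products sense iron-loaded transferrin on hepatocytes, stood at 0.38 (adjusted p = 0.212) and 0.34 (adjusted p = 0.136) in the authors' deposited table. Tmprss6, the protease that cleaves hemojuvelin and so lowers hepcidin, stood at 0.31 (adjusted p = 0.172) in the authors' deposited table. Of 27 tested regulators outside the BMP ligands, 4 were higher in ly_A and 7 in ly_B in the authors' deposited table, with a median log2 value of -0.05. The called share was 40.7%, beside 35.8% of all tested genes. B2m, the partner protein of HFE, was higher in ly_A at 1.20 (adjusted p = 4.12e-07) and Creb3l3, a stress-activated transcription factor that can induce hepcidin, at 0.57 (adjusted p = 0.00117) in the authors' deposited table. Hgf, a growth factor that lowers hepcidin, was higher in ly_B at -1.65 (adjusted p = 1.06e-06), and the hypoxia factor Epas1 at -1.08 (adjusted p = 2.67e-05), in the authors' deposited table.

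Of the genes of the interleukin-6 route in the same list, Stat3 at -0.70 (adjusted p = 0.000552) and the kinase gene Jak1 at -0.54 (adjusted p = 0.00497) were higher in ly_B and the receptor gene Il6ra was higher in ly_A at 0.92 (adjusted p = 0.00393), in the authors' deposited table. Il6st and Jak2, at -0.32 (adjusted p = 0.266) and -0.47 (adjusted p = 0.101), were not called in the authors' deposited table, and Il6 was not among the tested genes. Socs3, a feedback target of STAT3, stood at 0.53 without a call (adjusted p = 0.182) in the authors' deposited table. The interleukin-1 receptor gene Il1r1 was higher in ly_A at 1.73 (adjusted p = 2.62e-08) and the interleukin-22 receptor gene Il22ra1 higher in ly_B at -1.38 (adjusted p = 0.00111) in the authors' deposited table.

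For the iron genes, the hairpins that iron regulatory proteins can bind are shown because Tfrc carries them at the other end of the message from Fth1 and Slc40a1. Each hairpin searched had an unpaired C, a stem of 5 base pairs with G-T pairs allowed, and a loop of 6 bases that starts CAGTG. The stretches of 27 bases come from GENCODE M21 transcripts, with the loop in capitals. This search found 1 each in Fth1 and Slc40a1 before the coding region. In Tfrc it found 4 after the coding region, of which the first 2 are shown. Hairpins of another form were not searched, so these counts can miss some.
Fth1: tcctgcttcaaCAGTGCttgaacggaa
Slc40a1: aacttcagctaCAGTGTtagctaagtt
Tfrc, first: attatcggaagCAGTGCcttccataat
Tfrc, second: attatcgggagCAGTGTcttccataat

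The Fth1 hairpin starts 132 bases and the Slc40a1 hairpin 224 bases before the start codon. Among 21875 protein-coding genes, 0.128% held such a hairpin in the 5′ UTR and 0.581% in the 3′ UTR, and Tfrc was the only gene with 4 or more in the 3′ UTR of 1 transcript. The other 7 members held none of this form in a UTR. When a cell is short of iron, iron regulatory proteins bind these hairpins. Binding protects Tfrc mRNA from decay, and it blocks translation of Fth1 and Slc40a1 without lowering their mRNA by the same route.

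Tfrc had the smallest p of the 10 genes. The transferrin receptor gene was 3.32-fold higher in ly_B (log2 -1.73, adjusted p = 1.38e-15) in the authors' deposited table, where its p ranked 113 of 16426. Fth1, the heavy chain of the iron store ferritin, stood at -0.44 (adjusted p = 0.0543) and its partner Ftl1, the light chain, at 0.10 (adjusted p = 0.672) in the authors' deposited table. Slc40a1, ferroportin, stood at -0.30 (adjusted p = 0.287) in the authors' deposited table. The genes of the regulatory proteins, Aco1 at -0.34 and Ireb2 at -0.25, were not called in the authors' deposited table (adjusted p = 0.197 and 0.31). Fbxl5, whose product marks iron regulatory protein 2 for breakdown when iron is present, was higher in ly_B at -0.65 (adjusted p = 0.00386) in the authors' deposited table.

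Trf, which encodes the plasma iron carrier transferrin, had a log2 value of 1.11 in the authors' deposited table and was not called (adjusted p = 0.209). This is 2.17-fold towards ly_A, a size close to that of Id1 in the other direction. Of the 932 tested genes whose absolute log2 value lay within 0.1 of that of Trf, 73.2% were called. A difference of this size in Trf therefore went with a larger p than in most genes of like size, and the values per animal behind it were not examined.

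Of the 22 tested genes of iron uptake, transport and scavenging, 5 were higher in ly_A and 5 in ly_B in the authors' deposited table. This share of 45.5% stands beside 35.8% over all tested genes. Lcn2, which binds bacterial iron carriers and is an acute phase protein, was 6.86-fold higher in ly_B (log2 -2.78, adjusted p = 1.9e-22) in the authors' deposited table. The reductase genes Steap4 at -1.18 (adjusted p = 5.02e-06) and Steap2 at -0.96 (adjusted p = 0.000108) and the iron importer gene Slc11a2 (DMT1) at -0.70 (adjusted p = 0.0146) were also higher in ly_B in the authors' deposited table. Towards ly_A stood Cd163, the macrophage receptor for haemoglobin bound to haptoglobin, at 1.87 (adjusted p = 2.4e-06), and haptoglobin itself, Hp, at 0.63 (adjusted p = 0.000459) in the authors' deposited table. Slc39a14 (ZIP14), the hepatocyte importer of iron not bound to transferrin, was not called, at -0.29 (adjusted p = 0.216) in the authors' deposited table.

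Of 12 tested genes of storage, export and iron regulation, 3 were higher in ly_B and 0 in ly_A in the authors' deposited table, with a median of -0.35. The 3 were Fbxl5, Cp and Pcbp1. The called share of this list lay below the 35.8% called among all tested genes. Its share higher in ly_B lay above the 17.7% found among all tested genes. Cp, the ferroxidase ceruloplasmin that works with ferroportin, stood at -0.78 (adjusted p = 0.000163) and Pcbp1, a chaperone that delivers iron to ferritin, at -0.37 (adjusted p = 0.0425) in the authors' deposited table. Ncoa4, the receptor for ferritin breakdown, stood at -0.74 without a call (adjusted p = 0.0933) in the authors' deposited table.

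**Figure D3:**
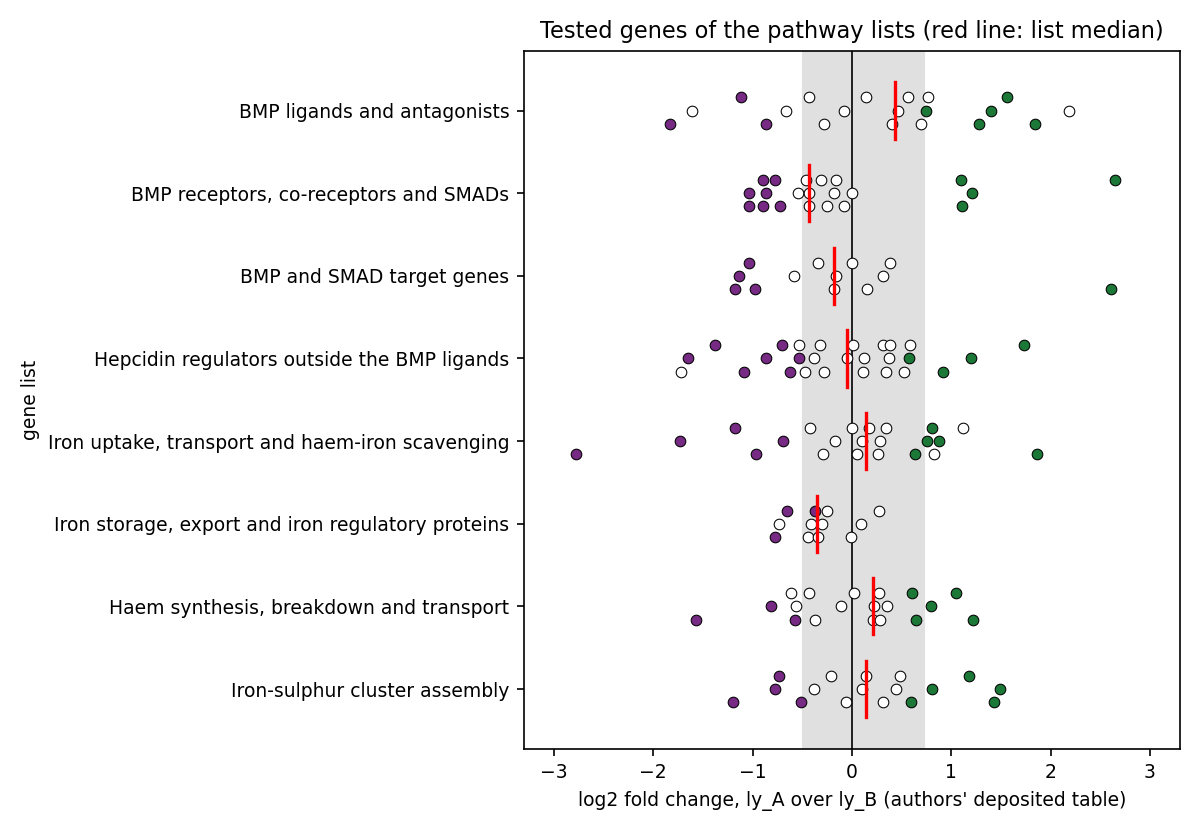
Log2 fold change of ly_A over ly_B for every tested gene of the 8 pathway lists (1 row a list, points spread vertically for sight only); filled points were called, the red line is the list's median and the grey band holds the middle 50% of all tested genes. The medians run from -0.43 for receptors and SMADs to 0.44 for ligands and antagonists.

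Over the 8 lists together, 29 of 144 tested genes were higher in ly_A and 35 in ly_B in the authors' deposited table, or 44.4%. The same count over all tested genes gave 35.8%. The members themselves are part of these lists.

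Markers of the cells that make or hold iron proteins also moved in the same comparison. Of 10 Kupffer cell markers, 7 were higher in ly_A and 0 in ly_B in the authors' deposited table, among them Clec4f at 2.63 (adjusted p = 5.77e-13) and Timd4 at 3.04 (adjusted p = 2.6e-09). Kupffer cells recycle iron from red cells and express ferroportin and Cd163. Of 9 tested markers of recruited macrophages, 4 were higher in ly_B and 0 in ly_A in the authors' deposited table, with Gpnmb at -4.93 and Mmp12 at -6.31 (largest adjusted p = 7.3e-11). Of 7 tested erythroid markers, 3, all globin genes, were higher in ly_A and 0 in ly_B in the authors' deposited table, with Hba-a1 at 1.97 (adjusted p = 1.24e-06). The 4 without a call included Hbb-bt at 1.62 (adjusted p = 0.148) and Slc4a1 at 2.96 (adjusted p = 0.0921) in the authors' deposited table. The others were Klf1 at 1.53 (adjusted p = 0.0569) and Alas2 at -0.14 (adjusted p = 0.767) in the authors' deposited table. Of the 7, 6 had a positive log2 value, as had 7488 of all 14114 tested genes. Immature red cells are rich in transferrin receptor. Tfrc was higher in ly_B, the side opposite to the called globin genes, and the part of red cells in the Tfrc value was not tested. Reads of globin copies may not be separable, so each single globin value is uncertain.

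Hepatocytes make hepcidin and transferrin. Their 10 markers, all of them tested, were called in both directions, 2 higher in ly_A and 3 in ly_B in the authors' deposited table, with a median of -0.01. Ttr stood at 1.07 (adjusted p = 6.96e-05) and Apob at -1.07 (adjusted p = 1.34e-06) in the authors' deposited table. Of 9 tested stellate cell and fibroblast markers, 3 were higher in ly_B and 0 in ly_A in the authors' deposited table, including Hgf and Pdgfrb at -0.67 (adjusted p = 0.00842). The part of these cell types in the values of Slc40a1, Tfrc, Trf and the hepcidin genes was not tested.

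**Figure D4:**
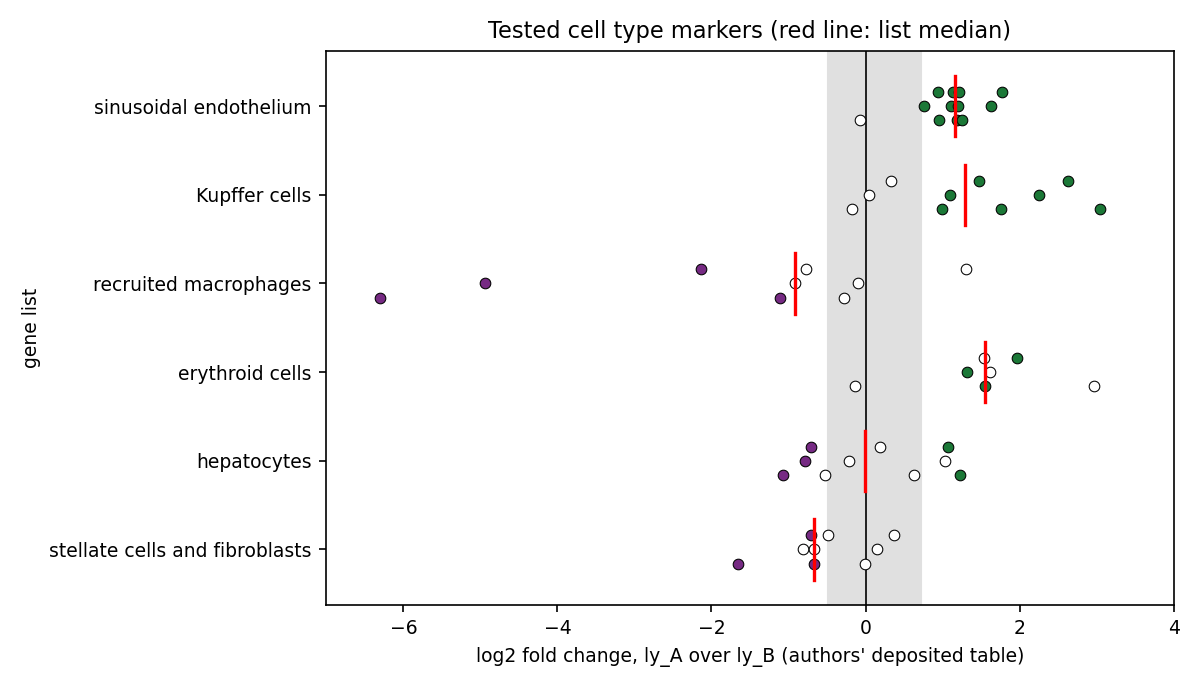
Log2 fold change of ly_A over ly_B for every tested marker of 6 cell types (1 row a cell type, points spread vertically for sight only); filled points were called, the red line is the list's median and the grey band holds the middle 50% of all tested genes. Sinusoidal endothelial and Kupffer cell medians lie at 1.16 and 1.29, and the recruited macrophage median at -0.92.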

How the data were processed

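Per the labels' protocols, liver RNA was extracted with Trizol and sequenced from NEBNext libraries. DESeq2 and the build mm9 stand in the submitters' processing notes. The sources used here do not give the aligner, the counter or the annotation. The authors deposited 1 table, and its log2 fold change, p-value and adjusted p-value per gene are theirs, per the file headers. The 18 columns of single libraries match no sample label and were not used. An adjusted p of exactly 1 stood in 2312 rows. A Benjamini-Hochberg adjustment over the remaining 14114 rows gave the deposited values to a relative difference of 9.47e-13, so only these rows were counted as tested.

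Calls across all genes were counted per direction, with no test added, in Python 3.11.15 with pandas 2.3.3. The adjustment was tested on simulated data. The members and the 8 pathway and 6 marker lists were chosen with earlier results of these data known. The genes named are the members, up to 6 called genes of each pathway list by smallest p (the 2 with the smallest p where fewer than 2 were called), 2 per marker list by smallest p, and a set fixed by name; Bmp1, Inhbe, Lyve1, Id4, Jak1, Jak2, Il6st, Alas2 and Klf1 were named after their values were seen, and 1 gene that the rule takes is not reported here. Promoters came from RefSeq on GRCm38.p6, transcripts from GENCODE M21 on the same build, not mm9, and Biopython 1.88 aligned them. Alternatives tried were a stricter adjusted p of 0.01, a difference of at least 2-fold as well (also after subtracting the median), adjustment over every row, and, chosen after seeing the data, no adjustment.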

Additional observations from a re-analysis of the deposited data

How the results depend on the processing

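The calls of Hamp2, Id1 and Tfrc held under an adjusted p under 0.01, a 2-fold minimum with or without the median subtracted, and adjustment over every row, at 1 gene higher in ly_A and 2 in ly_B. Without adjustment the members' counts became 2 and 4. The pathway genes higher in ly_A went from 29 to 19 at an adjusted p under 0.01, to 17 with at least 2-fold as well and to 16 with 2-fold after subtracting the median; those higher in ly_B went from 35 to 14 with 2-fold and to 16 after subtracting the median. Marker genes higher in ly_B went from 10 to 6 with 2-fold, with or without the median subtracted. Adjustment over every row of the table kept each of these counts within 1.5 times, and so did the settings not named here. Of 28 counts of single lists per direction, 6 moved by over 1.5 times at an adjusted p under 0.01, 12 with 2-fold, 11 with 2-fold after subtracting the median, 0 with adjustment over every row and 8 without adjustment, where Bmp2, Hamp and Fth1 also passed. No paired analysis was possible because the columns of single libraries match no sample label. The columns of single libraries match no sample label and were left out by choice. No fit without a single library was therefore made, and read depth per gene was not looked at.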

Other observations

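Haem genes were called in both directions. Of 19 tested genes of haem synthesis, breakdown and transport, 5 were higher in ly_A and 3 in ly_B in the authors' deposited table, with a median log2 value of 0.21. The called share was 42.1%, against 35.8% of all tested genes. Towards ly_A lay the synthesis genes Uros at 1.22 (adjusted p = 7.75e-07), Alad at 0.80 (adjusted p = 0.00655) and Urod at 0.60 (adjusted p = 0.00786) and the biliverdin reductase gene Blvrb at 1.05 (adjusted p = 1.04e-08) in the authors' deposited table. The synthesis gene Cpox at -0.82 (adjusted p = 0.02) and the haem transporter gene Slc48a1 at -1.57 (adjusted p = 1.59e-07) were higher in ly_B in the authors' deposited table. Hmox1, the haem oxygenase that frees iron from haem, stood at 0.28 without a call (adjusted p = 0.328) in the authors' deposited table.

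Iron-sulphur cluster genes were split as well, with 5 of 17 higher in ly_A and 4 in ly_B in the authors' deposited table. Called were 52.9% of this list, beside 35.8% of all tested genes. Ferredoxin and its reductase, which pass electrons in mitochondria, were both higher in ly_A, Fdx1 at 1.18 (adjusted p = 2.89e-07) and Fdxr at 1.43 (adjusted p = 0.000167), in the authors' deposited table. The mitochondrial chaperone Hspa9 at -1.20 (adjusted p = 7.71e-05) and the cytosolic scaffold gene Nubp1 at -0.78 (adjusted p = 0.00651) were higher in ly_B in the authors' deposited table. Bola3 and Isca2, which act late in mitochondrial assembly, stood at 0.80 and 0.59 towards ly_A (largest adjusted p = 0.0102) in the authors' deposited table.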
